A study of Mus spretus with 8 samples.

Results

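The tricarboxylic acid cycle and the entry of pyruvate into it were followed step by step in livers of male Mus spretus with and without dietary p,p'-DDE, with 31 genes listed by name as members. A member was measured if the annotation of the array carried its symbol, and the value of a gene is that of its brightest probe, averaged over the 8 arrays. That gave 30 of the 31 members (43 probes) among 22471 genes with a symbol, and Mpc2 had no probe. Members were listed by their place in the pathway.

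All 8 mice were males of SPRET/EiJ, an inbred strain of the species Mus spretus, and the design text gives an age of 7 weeks, stated for the DDE mice. The 4 control mice ate Harlan diet with corn oil, and the 4 DDE mice ate it with p,p'-DDE in the corn oil, at 450 mg/kg, in both groups for 30 days. p,p'-DDE is a long-lived metabolite of DDT. Total RNA of liver was labelled with Cy3 and measured on 1-colour Agilent arrays, with 1 array per mouse, so each group holds 1 sex, 1 dose and 1 time. In RNA from liver tissue, fewer cells of a type and less RNA per cell cannot be told apart.

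Pyruvate made in the cytosol enters mitochondria through the pyruvate carrier, a dimer of Mpc1 and Mpc2. The pyruvate dehydrogenase complex then turns it into acetyl-CoA, and kinases of the Pdk family switch the complex off while phosphatases of the Pdp family switch it on again. In the cycle, acetyl-CoA joins oxaloacetate to form citrate, which is oxidized stepwise back to oxaloacetate, giving NADH, FADH2 and a nucleoside triphosphate. In liver the cycle also feeds other pathways, since malate and citrate leave mitochondria through carriers for glucose and fat synthesis.

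Values are log2 signals as deposited, on a scale that ran up to 16, and a group is given as mean ± SD with n = 4 mice. The background level of an array, set from probes for olfactory and vomeronasal receptors, lay between 7.56 and 7.81. Regional stains, where neighbouring spots deviated together, covered 0.521% of the spots of DDE 1 and up to 9.5% of those of control 4. All 7 measured hepatocyte markers, Alb and Ttr among them, were above background on all 8 arrays. Their mean was 15.18 to 15.46 in controls and 15.07 to 15.41 after DDE. All of them except Cps1 had group means of 15.71 or more, close to the top of the scale, where a change has little room to show. Of the measured markers of other cells, 0 of 8 Kupffer cell, 0 of 8 endothelial and 0 of 5 cholangiocyte markers passed the limma test described next. Of the lymphocyte, red cell and muscle markers, 0 of 7, 0 of 3 and 0 of 6 passed. At most 1 marker of each of these lists had an unadjusted limma p under 0.05. In the same order, 5, 6, 0, 2, 2 and 4 markers were above background on all 8 arrays. The cholangiocyte and most lymphocyte markers thus had little signal to test. Of 8 stellate cell markers 1 passed, Reln, which was higher, and before adjustment 4 were higher (Reln 0.38, Col3a1 1.07, Col1a1 0.62 and Lrat 0.34) and 1 lower (Dcn, -0.96). Of 8 pericentral hepatocyte markers 1 passed, Glul, which was lower, and of 6 periportal ones 0 passed, with 2 lower and 0 higher before adjustment in each list. The stellate cell markers had a mean of 8.63 to 9.08 in controls and 8.93 to 9.48 after DDE. The muscle markers had a mean of 10.06 to 10.41 in controls and 8.76 to 10.20 after DDE, and the pericentral markers 11.49 to 11.98 and 11.20 to 11.84. The part of these cells in the results below was not tested.

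The study's comparison asks which genes differed in liver after DDE, and here it is read along the cycle. With limma fitted on all 42957 probes, 1 of the 30 measured members rose, Suclg2, and 1 fell, Pdhx, at a Benjamini-Hochberg adjusted p under 0.05. Over all genes, each at its brightest probe, 2.58% passed as higher and 0.774% as lower, so the members' counts were near the background. Among the genes with a mean above background the shares were 4.56% and 1.35%. Over all probes, 1005 (2.34%) passed as higher and 284 (0.661%) as lower, a split that became 1504 and 1089 with stained spots left out and the rest quantile normalized. Before adjustment 5 members were higher and 3 lower (limma p under 0.05), beside 11.4% and 4.57% of all genes, and 18.4% and 7.12% of those with a mean above background. The values of the 4 DDE mice all lay above those of the 4 controls for 4 members and all below them for 3, beside 8.48% and 4.06% of all genes, and 13.1% and 5.75% of those with a mean above background. The median log2 change of the 30 members was 0.13, with 19 higher and 11 lower means, beside 0.07 over the 12550 genes with a mean above background.

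**Figure D1:**
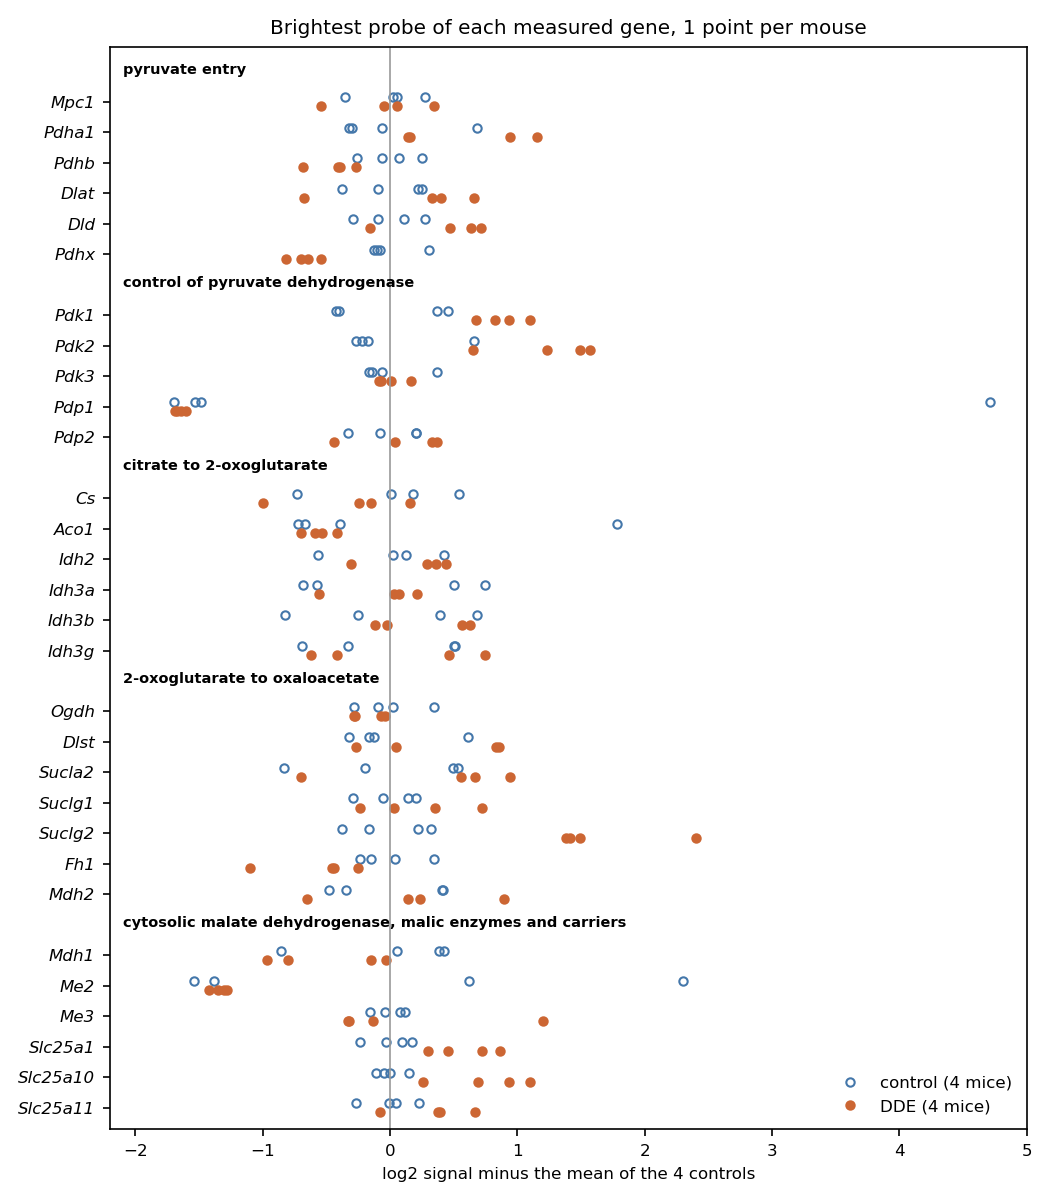
Log2 signal of each measured member in every mouse, as the difference from the mean of the 4 controls (horizontal axis), with open points for controls, filled points for DDE and genes grouped by step. The DDE points of Suclg2 all lie to the right of its controls and those of Pdhx to the left, while single control points stand far out for Pdp1, Aco1 and Me2.

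Of the 30 members, 24 were above background on all 8 arrays and 6 were not: Pdhx, Pdk3, Pdp1, Aco1, Me2 and Me3. Among the 23 of the 24 that did not pass, the 95% interval of the log2 change stayed within a 2-fold change in either direction for 11 and reached beyond it for 12. The typical spread between mice was slightly larger for members than for other genes, with a median within-group SD of 0.43 for the 29 members with a mean above background and 0.38 for all such genes. The median deviation of members from the group mean was -0.25 in control 4, -0.18 in control 3 and -0.21 in DDE 4. It lay between 0.05 and 0.19 in the other 5. The same median was not taken over other genes, so this pattern is not shown to be particular to the members.

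**Figure D2:**
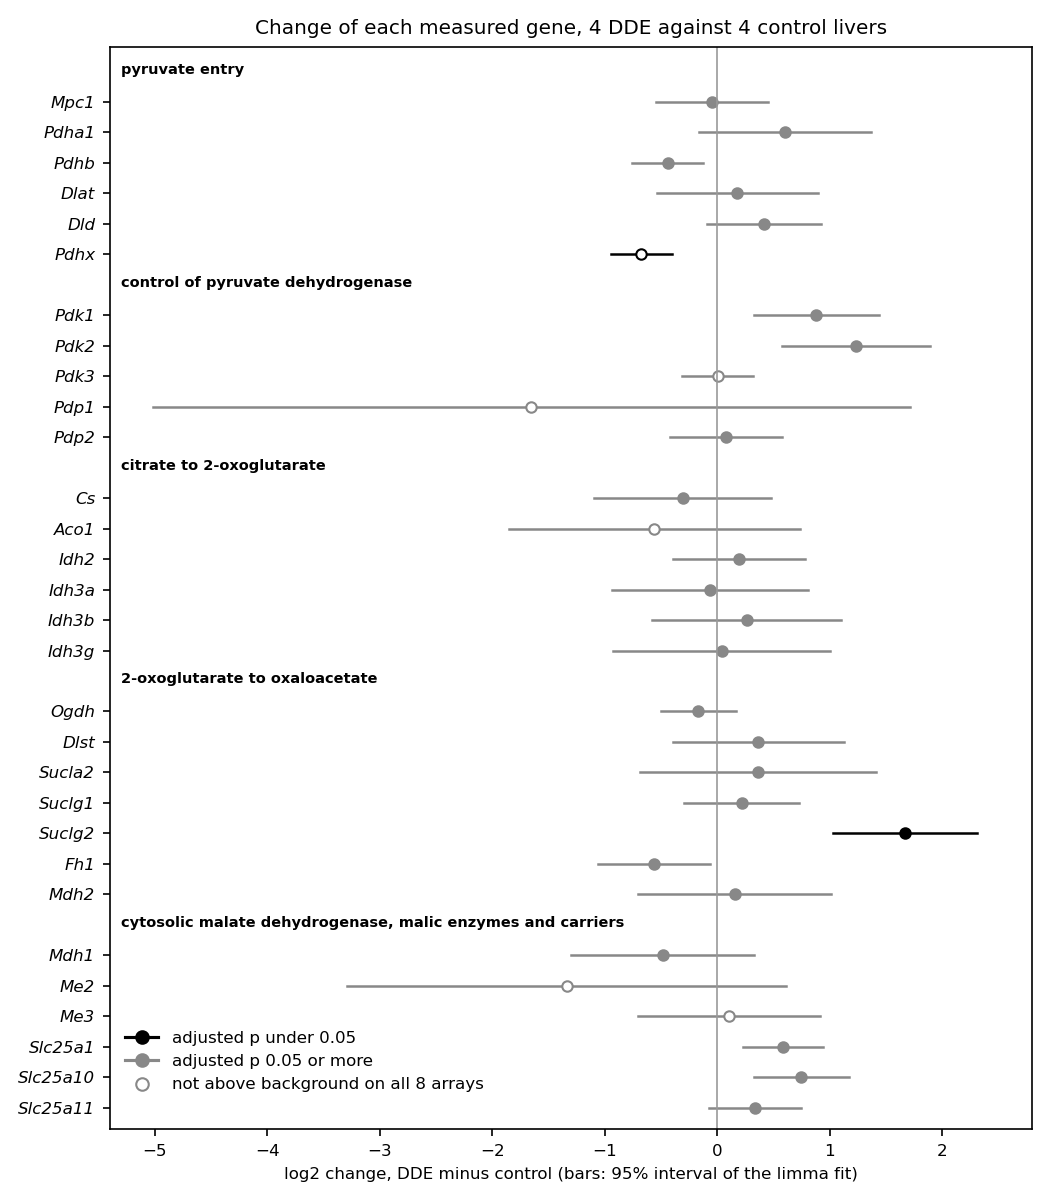
Log2 change of each measured member, DDE minus control (horizontal axis), with bars for the 95% interval of the limma fit and genes grouped by step. Suclg2 and Pdhx (black) passed the adjusted threshold, and open points mark the 6 members that were not above background on all 8 arrays.

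Succinyl-CoA ligase splits succinyl-CoA to succinate and captures its energy as a nucleoside triphosphate. The enzyme pairs the shared alpha subunit Suclg1 with 1 of 2 beta subunits, Suclg2 in the GTP-forming and Sucla2 in the ADP-dependent, ATP-forming enzyme. Suclg2 (Entrez 20917) gave 10.39, 10.49, 10.00 and 9.79 in controls and 11.55, 12.57, 11.58 and 11.66 after DDE. The groups did not overlap, and the highest DDE value, that of DDE 2, stood apart from the other 3 and lay on a stained spot. Suclg2 rose 3.19-fold, from 10.17 ± 0.33 to 11.84 ± 0.49, with a log2 change of 1.67 (95% interval 1.03 to 2.31, limma adjusted p = 0.028). Without DDE 2 the change was 1.43 (limma adjusted p = 0.0426), and with stained spots left out 1.43 (limma adjusted p = 0.0132). Of the 12550 genes with a mean above background, 1.94% had a larger rise.

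The partners of Suclg2 did not pass. Suclg1 gave 13.49, 13.55, 13.29 and 13.06 in controls and 13.70, 14.07, 13.38 and 13.11 after DDE, with overlapping groups and a change of 0.22 (95% interval -0.30 to 0.73). Sucla2 gave 13.16, 13.20, 12.47 and 11.83 in controls and 13.33, 11.97, 13.61 and 13.22 after DDE, and DDE 2, the highest mouse for Suclg2, was the lowest of the DDE group here. Its change was 0.37 (95% interval -0.68 to 1.42).

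Whether Suclg2 changed more than its partners was tested on the difference of log2 values within each array. Suclg2 minus Suclg1 went from between -3.29 and -3.06 in controls to between -2.15 and -1.45 after DDE, a change of 1.46. Suclg2 minus Sucla2 went from between -2.77 and -2.04 to between -2.03 and 0.60, a change of 1.31. The groups did not overlap in either, though Suclg2 minus Sucla2 had -2.04 against -2.03 at the nearest, and both had an exact two-sided permutation p of 0.0286, the smallest that 4 against 4 arrays allow. Adjusted over the 8 pairs of members tested, both exact permutation tests had p = 0.114 and did not pass. Without DDE 2, the highest for Suclg2 and the lowest DDE mouse for Sucla2, the change of Suclg2 minus Sucla2 was 0.71 (exact permutation p = 0.0571).

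The call of Suclg2 was kept in 12 of 20 alternative settings, with adjusted p from 0.00525 to 0.0789, and lost without control 1 (0.0547), control 2 (0.0634), control 3 (0.0789), DDE 1 (0.0605) or DDE 3 (0.0621). It was also lost with all 8 mice under ordinary t statistics (0.0692) and in a replicate block fit, which takes same-numbered arrays as pairs (0.0712). Without control 4 and DDE 4 together the call was lost too (0.0657). Its change ran from 1.26 to 1.78 over the 20.

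**Figure D3:**
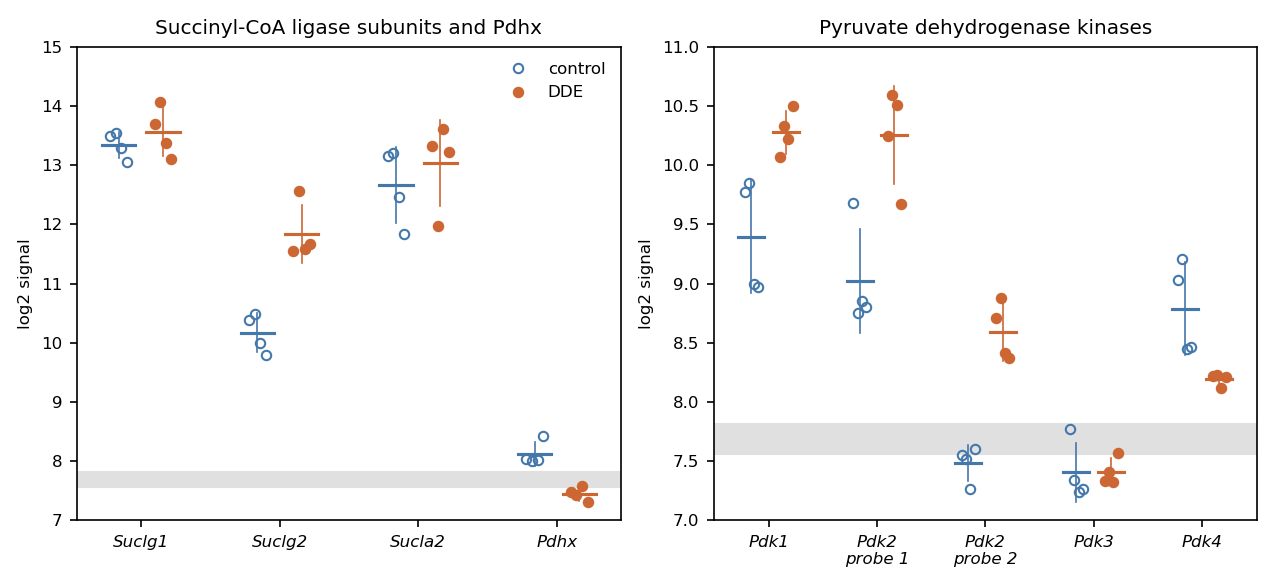
Log2 signal per mouse (vertical axis) of the succinyl-CoA ligase subunits and Pdhx (left) and of the pyruvate dehydrogenase kinases (right), with open points for the 4 controls, filled points for the 4 DDE mice, lines for mean and SD, and a grey band from the lowest to the highest background level of the arrays. Suclg2 is higher in all 4 DDE mice, Pdhx lies in or below the band in all 4, and the mean of Pdk2 after DDE is higher at both of its probes.

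In the pyruvate dehydrogenase complex, Pdha1 and Pdhb form the E1 enzyme that removes CO2, Dlat is the E2 core, Dld the E3 enzyme shared with other complexes, and Pdhx the protein that fastens E3 to the core. Of the 6 measured genes of pyruvate entry 0 rose and 1 fell, by limma, 2 were lower and 0 higher without adjustment (p under 0.05), and the step had a median change of 0.07.

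Pdhx (Entrez 27402) gave 8.04, 7.99, 8.01 and 8.42 in controls and 7.47, 7.42, 7.57 and 7.30 after DDE. All 4 controls were above background and 0 of 4 DDE livers were. The fall between the group means was therefore at least 1.39-fold when the DDE values were raised to the background level. The measured means were 8.12 ± 0.20 and 7.44 ± 0.11, a log2 change of -0.68 (95% interval -0.95 to -0.40, limma adjusted p = 0.0326). Control 4 stood apart as the highest, and without it the change was -0.57 (limma adjusted p = 0.0253). The call was kept in 10 of 20 settings, with adjusted p from 0.0136 to 0.141. It was lost without control 1 (0.0617), control 2 (0.0728), control 3 (0.0698), DDE 1 (0.0851), DDE 2 (0.1), DDE 3 (0.0649) or DDE 4 (0.0518). With all 8 mice it was lost under ordinary t statistics (0.0661), with an intensity trend and robust variance (0.0948) and in the replicate block fit (0.141). A probe this close to background measures a change with little range.

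Pdhb (Entrez 68263) gave 12.19, 12.32, 12.50 and 11.99 in controls and 11.84, 11.86, 11.98 and 11.57 after DDE at its brightest probe. The DDE values all lay below the controls, with 11.98 against 11.99 at the nearest, and the change of -0.44 did not pass (limma adjusted p = 0.158). Its second probe had a change of -0.21 with overlapping groups, and its dimmest probe, near background, one of 0.36.

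Pdha1 went the other way in its mean, from 9.10 ± 0.47 to 9.70 ± 0.53, and did not pass (0.60, 95% interval -0.16 to 1.36). The difference between the E1 subunits, Pdha1 minus Pdhb, changed by 1.04 (exact permutation p = 0.0857, adjusted p = 0.229). Dlat had 10.15 ± 0.30 and 10.33 ± 0.59, a change of 0.18 (95% interval -0.54 to 0.90). Dld had 10.38 ± 0.24 and 10.79 ± 0.39, with a change of 0.42 at its brightest and 0.29 at its other probe, neither past the threshold. The carrier subunit Mpc1 was bright, with 14.55 ± 0.26 in controls and 14.50 ± 0.37 after DDE. The change of Mpc1 was -0.05 (95% interval -0.55 to 0.45), while its second probe, on which control 4 was stained, was higher in all 4 DDE mice by 0.33 (limma adjusted p = 0.136).

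Enzymes that switch the complex off had higher values after DDE in 2 of 3 measured members, without passing at their brightest probes. Pdk2 (Entrez 18604), the kinase isoform found in most tissues, gave 9.68, 8.75, 8.85 and 8.80 in controls and 10.25, 10.59, 10.51 and 9.67 after DDE. Only control 1, which lay on a stained spot, reached the lowest DDE value, and the change was 1.24 (95% interval 0.58 to 1.89, limma adjusted p = 0.0714). Without control 1 Pdk2 passed, with a change of 1.46 (limma adjusted p = 0.0415). With stained spots left out it passed too, with a change of 1.46 (limma adjusted p = 0.0227), and it did so in 7 of the 20 settings, with adjusted p from 0.0221 to 0.18.

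The second Pdk2 probe passed in the main comparison. It gave 7.55, 7.52, 7.26 and 7.60 in controls, where 0 of 4 were above background, and 8.71, 8.88, 8.41 and 8.37 after DDE, where all 4 were. At this probe the mean of Pdk2 was at least 1.88-fold higher, with a measured log2 change of 1.11 (95% interval 0.78 to 1.44, limma adjusted p = 0.0129).

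Pdk1 (Entrez 228026), a kinase isoform known for its induction in low oxygen, gave 9.77, 9.85, 9.00 and 8.97 in controls and 10.07, 10.33, 10.22 and 10.50 after DDE. The groups did not overlap, and the controls themselves split into a higher and a lower pair. Its change of 0.88 (95% interval 0.33 to 1.44) did not pass (limma adjusted p = 0.114), and in 20 of 20 settings it was positive with an unadjusted p under 0.05 and an adjusted p of 0.0808 or more. The difference between Pdk1 and Pdk2 changed by -0.35 (exact permutation p = 0.371).

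Pdk3, a further isoform, was at the background level, with 7.40 ± 0.25 in controls and 7.41 ± 0.12 after DDE, above it in 1 of 8 mice. Pdk4, a kinase induced by fasting and not a member, had 8.79 ± 0.39 in controls and 8.20 ± 0.05 after DDE. Its DDE values all lay below the controls, and its change of -0.59 did not pass (limma adjusted p = 0.167). Pdk4 was named after its values were seen, and the difference between its change and those of Pdk1 and Pdk2 was not tested.

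The phosphatases that switch the complex on had 0 of 2 members past the threshold of limma, with or without adjustment. Pdp1 was above background in 1 mouse at its brightest probe, with 13.70 in control 4 on a stained spot and 7.29 to 7.50 in the other controls. The mean change of -1.65 became -0.08 without control 4, and the other 2 probes of Pdp1 changed by -0.02 and -0.03. Pdp2 had 8.75 ± 0.26 in controls and 8.83 ± 0.37 after DDE (0.08, 95% interval -0.42 to 0.57).

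From citrate to 2-oxoglutarate 0 of 6 members passed and 0 had an unadjusted p under 0.05, and the median change was -0.01. Citrate synthase, Cs, which joins acetyl-CoA to oxaloacetate, had 13.27 ± 0.53 in controls and 12.96 ± 0.49 after DDE, a change of -0.31 (95% interval -1.09 to 0.48). Idh2, the mitochondrial NADP-dependent isocitrate dehydrogenase, had 14.35 ± 0.42 and 14.55 ± 0.34, a change of 0.20 (95% interval -0.39 to 0.78). Aco1, the cytosolic aconitase that doubles as iron regulatory protein, was above background only in control 4 and, barely, DDE 1. Control 4 gave 9.79 on a stained spot, beside 7.28 to 7.61 in the other controls and 7.31 to 7.59 after DDE. Without control 4 the change of Aco1 went from -0.56 to 0.04.

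The NAD-dependent isocitrate dehydrogenase, a main control point of the cycle, is built from the catalytic subunit Idh3a and the subunits Idh3b and Idh3g. Their changes were -0.06, 0.26 and 0.04, with 95% intervals of -0.93 to 0.81, -0.58 to 1.10 and -0.92 to 1.01. In all 3 the controls split in the same way. Controls 1 and 2 gave 10.14 and 10.39 for Idh3a, 12.14 and 11.85 for Idh3b, and 12.32 and 12.31 for Idh3g. Controls 3 and 4 gave 9.07 and 8.96 for Idh3a, 11.20 and 10.63 for Idh3b, and 11.48 and 11.12 for Idh3g. Control 2 was stained at the spots of Idh3a and Idh3b. The split was not particular to this enzyme. The hepatocyte marker Cps1 gave 12.48, 11.57, 10.73 and 10.46 in controls 1 to 4, and the dimmest Ogdh probe 10.75, 10.38, 9.98 and 9.36. The brightest Ogdh probe did not split so, with 12.29, 12.41, 12.73 and 12.10. What the split reflects was not tested. The difference between Idh2 and Idh3a changed by 0.26 (exact permutation p = 0.343).

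From 2-oxoglutarate to oxaloacetate 1 of 7 members rose, the ligase subunit Suclg2, and 0 fell, with a median change of 0.22. Ogdh and Dlst, the E1 and E2 enzymes of the 2-oxoglutarate dehydrogenase complex, had 12.38 ± 0.26 and 11.81 ± 0.42 in controls and 12.22 ± 0.13 and 12.17 ± 0.57 after DDE. Their changes of -0.17 (95% interval -0.50 to 0.17) and 0.37 (95% interval -0.39 to 1.13) did not pass. Mdh2, the mitochondrial malate dehydrogenase that closes the cycle, had 14.10 ± 0.48 and 14.25 ± 0.64 (0.16, 95% interval -0.70 to 1.01).

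Fh1 (Entrez 14194), fumarate hydratase, which adds water to fumarate to form malate, gave 13.43, 13.62, 13.92 and 13.34 in controls and 13.14, 12.48, 13.33 and 13.12 after DDE. The DDE values all lay below the controls, with 13.33 against 13.34 at the nearest, and the change of -0.56 did not pass (limma adjusted p = 0.261). The second Fh1 probe had overlapping groups and a change of 0.19.

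Succinate dehydrogenase, the step between succinate and fumarate and part of the respiratory chain, was outside the 31 members. Its subunits Sdha, Sdhb, Sdhc and Sdhd changed by 0.43, 0.11, 0.19 and 0.94, and none of the 4 passed (the smallest limma adjusted p was 0.1, for Sdhd, where DDE 3 was stained). A second Sdhc probe changed by 0.80 (limma adjusted p = 0.107).

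The transfer of malate, citrate and reducing equivalents across the mitochondrial membrane had 0 of 6 members past the adjusted threshold of limma, with 2 higher and 0 lower before adjustment. The citrate carrier Slc25a1 (Entrez 13358), which exports citrate for fat synthesis, gave 12.77, 12.64, 12.85 and 12.44 in controls and 13.13, 13.40, 12.97 and 13.54 after DDE. The groups did not overlap, and the change was 0.58 (95% interval 0.23 to 0.94, limma adjusted p = 0.1). The dicarboxylate carrier Slc25a10 (Entrez 27376), which exchanges malate and succinate for phosphate, gave 7.75, 7.81, 7.86 and 8.01 in controls and 8.55, 8.96, 8.79 and 8.12 after DDE. All 8 values were above background, but the controls lay near it, with control 1 just over its level of 7.738. DDE 4 was nearest to the controls, and without it the change of 0.75 (limma adjusted p = 0.0829) became 0.91 and passed (limma adjusted p = 0.0196). The 2-oxoglutarate and malate carrier Slc25a11 had 11.87 ± 0.20 and 12.21 ± 0.31 (0.34, 95% interval -0.07 to 0.75).

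Mdh1, the cytosolic malate dehydrogenase of the malate-aspartate shuttle, had 14.48 ± 0.60 in controls and 13.99 ± 0.47 after DDE (-0.48, 95% interval -1.30 to 0.33). Mdh1 minus Mdh2 changed by -0.64 (exact permutation p = 0.286). The malic enzymes Me2 and Me3, which turn malate into pyruvate in mitochondria, were near background. Me2 gave 9.33 in control 1 and 11.01 in control 4, where the spot was stained, and 7.17 to 7.43 in the other 6 mice. Me3 was above background in 2 of 4 controls and in 1 of 4 DDE mice, DDE 3, which gave 8.89, at its brightest probe (0.11). Its second probe, detected over background in 3 controls and 1 DDE mouse, had a change of the opposite sign, -0.41 (limma adjusted p = 0.258).

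Genes with more than 1 probe showed how far a value depended on the probe. Of the 9 such members, Ogdh had the widest gap between probes that were above background on all 8 arrays. Its 2 brighter probes changed by -0.17 and 0.03, and its dimmest gave 10.75, 10.38, 9.98 and 9.36 in controls and 8.78, 8.32, 9.04 and 8.0 after DDE. The groups of the dimmest probe did not overlap, with a change of -1.58 (95% interval -2.40 to -0.77, limma adjusted p = 0.0646). Its change differed from that of the brightest probe by -1.42 (exact permutation p = 0.0286, the smallest possible, and adjusted p = 0.186 over 13 such probe comparisons). Which stretch of the transcript each probe binds was not used here.

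**Figure D4:**
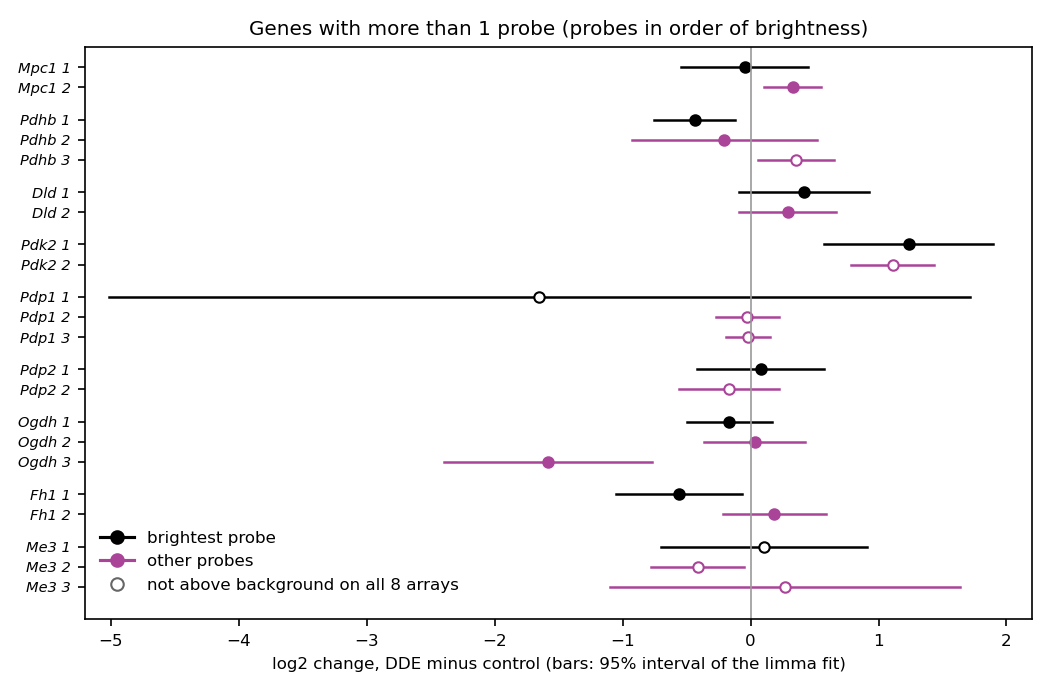
Log2 change, DDE minus control (horizontal axis), of every probe of the 9 members with more than 1 probe, numbered by brightness, with bars for the 95% interval of the limma fit and open points for probes not above background on all 8 arrays. Both Pdk2 probes lie to the right of 0, and Ogdh probe 3 lies at -1.58 while the other 2 lie near 0.

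The pathway's surroundings were read from 59 other genes in 6 lists, of which 52 were measured, 49 of them with a mean above background. Past the threshold were 3 higher and 2 lower (2.58% and 0.774% of all genes, 4.56% and 1.35% of those with a mean above background). Before adjustment 13 were higher and 10 lower (11.4% and 4.57% of all genes, 18.4% and 7.12% of those with a mean above background). The median change of the 52 was 0.17. Among 14 other enzymes of the cycle and of pyruvate, 1 rose, Me1, the cytosolic malic enzyme that makes NADPH (10.54 ± 0.64 to 12.57 ± 0.54, limma adjusted p = 0.0414), at its 1 probe above background. The lipoyl group carried by Dlat, Dlst and Pdhx needs Lias and Lipt1, and of 4 measured genes of cofactor supply 1 rose, Lipt1, the lipoyltransferase. Lipt1 gave 7.85 ± 0.10 in controls and 8.25 ± 0.09 after DDE (0.39, limma adjusted p = 0.0479). Its controls lay near background, with 7.76 in control 1 against a level of 7.738.

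Links to glutamate and aspartate held 3 of the 5 calls among 8 measured genes, 1 higher and 2 lower, in a list chosen with earlier results of these data known. Over all genes 2.58% passed as higher and 0.774% as lower, and 4.56% and 1.35% of those with a mean above background. The mitochondrial glutamate carrier Slc25a22 fell from 11.44 ± 0.19 to 10.21 ± 0.24 (-1.23, limma adjusted p = 0.0119), and the cytosolic aspartate transaminase Got1 fell from 14.12 ± 0.20 to 12.84 ± 0.27 (-1.29, limma adjusted p = 0.0128). The mitochondrial alanine transaminase Gpt2 rose from 12.21 ± 0.11 to 13.00 ± 0.24 (0.79, limma adjusted p = 0.0285), with control 4 on a stained spot. The mitochondrial aspartate transaminase Got2 and the aspartate-glutamate carriers Slc25a12 and Slc25a13 had changes of -0.03, 0.08 and 0.08.

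The other 3 lists held 0 calls at the brightest probes. The counts before adjustment that follow stand beside 11.4% higher and 4.57% lower over all genes, and 18.4% and 7.12% of those with a mean above background. Of 8 genes of lactate, phosphoenolpyruvate and citrate cleavage, 1 was higher and 3 lower before adjustment, with the smallest p for the lactate dehydrogenase subunit Ldhb (-1.26, limma adjusted p = 0.118). Acly, the gene of citrate cleavage, was also among the lower ones, without overlap at its brightest probe (-1.32, limma adjusted p = 0.179, control 2 stained). The same held at its second probe (-0.98, limma adjusted p = 0.123, control 3 stained). Of 10 genes that feed propionyl-CoA and branched-chain acids into the cycle, 4 were higher and 1 lower at that level, led by Mcee, an epimerase on the way to succinyl-CoA (0.68, limma adjusted p = 0.0726). Of 8 regulators of mitochondrial genes, 2 were higher and 1 lower, led by Hif1a (0.69, limma adjusted p = 0.13). The lower one, Ppargc1a, had a larger change and almost the same p (-1.065, limma adjusted p = 0.134). Its groups did not overlap at its brightest probe, where control 4 was stained. A second probe of Tfam, a transcription factor of mitochondrial DNA, passed with a change of 0.97 (limma adjusted p = 0.0411), while its brightest probe had 0.69 (limma adjusted p = 0.272).

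**Figure D5:**
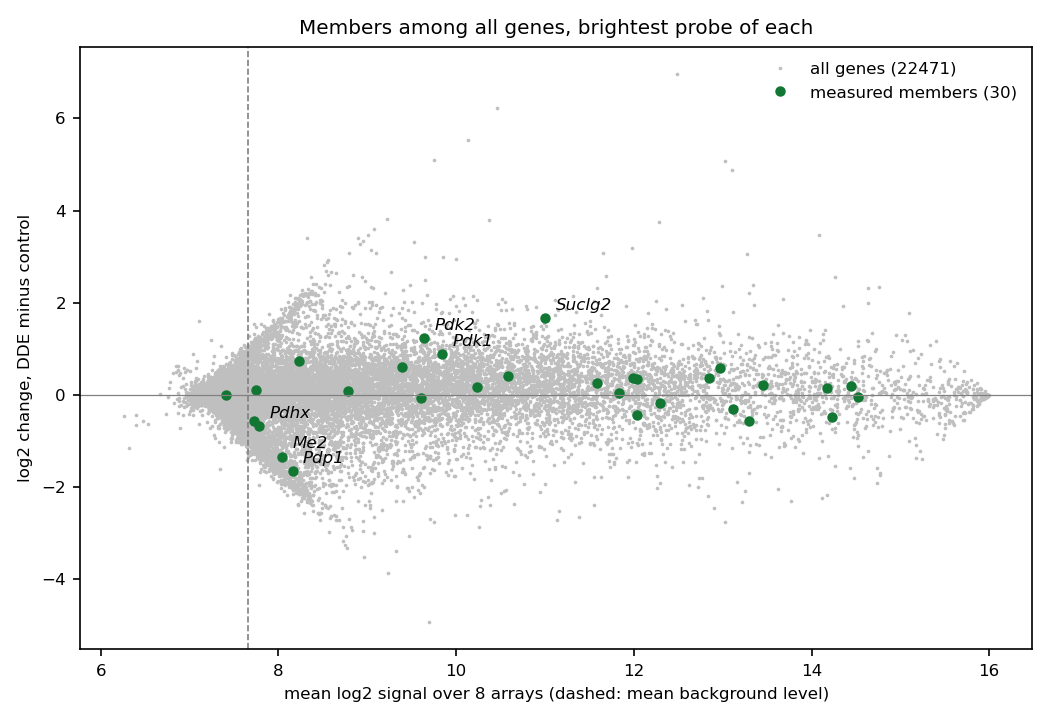
Log2 change, DDE minus control (vertical axis), against the mean log2 signal over 8 arrays (horizontal axis) for 22471 genes (grey) and the 30 measured members (green), each at its brightest probe, with the mean background level dashed. Suclg2 is the highest member and Pdp1 the lowest, and the other members lie between.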

How the data were processed

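The values are log2 signals that the authors normalized before they deposited them, 1 column per array. Per the labels' protocols, the total RNA of each liver was copied into Cy3-labelled cRNA. How signals were corrected for background and normalized is not given in the sources used here. The deposited table holds 42957 probes, and the annotation supplied with it gives 1 gene symbol for 33009 of them and none for the other 9948. How well the probes match Mus spretus transcripts was not tested. Probe sequences and genome positions were not used here, so the planned search for promoter motifs was not run.

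DDE was compared with control at every probe by the moderated statistics of limma 3.58.1 (R 4.3.3), two-sided and without covariates, with p-values adjusted by Benjamini-Hochberg over all probes. No filter or offset was applied. Pairs of members, and the probes of 1 member, were compared by exact permutation of within-array differences over the 70 assignments of 4 and 4 arrays. The comparison of probes was added after seeing the data. Mpc1 minus Mpc2 could not be computed.

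Background was the 0.95 quantile of 1638 receptor probes per array, stained spots left out. A fold is a lower bound where the dimmer group reached background, or where the brighter group came within 0.2 of the top of the scale. Such a bound is for the group means and leaves out the spread between mice. Stained spots were those whose surroundings, 7 rows by 5 columns of the array, had a median deviation above 0.3 or below -0.3. The number of arrays limits the precision. Labels number the samples of a group but not their pairing. No 2 arrays were identical (pairwise correlation over probes 0.732 to 0.966).

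The members, lists and tests were chosen with earlier results of these data known. Named with all values were members past the threshold, members with an unadjusted p under 0.05 and pairs at the smallest exact p. Of the neighbouring genes, those past the threshold or with the smallest p of their list were named. Pdk4, Tfam, Ppargc1a, Acly, Got2, Slc25a12, Slc25a13 and the subunits of succinate dehydrogenase were added after their values were seen. The procedure was tested on simulated arrays, and the closing section gives the alternatives tried.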

Additional observations from a re-analysis of the deposited data

Results flagged for a closer look

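Of 60 groups of 4 mice, 2 for each of the 30 members at its brightest probe, 6 held a mouse whose gap to the nearest other was above Dixon's 95% critical value, and chance gives about 1 in 20 groups. All 6 were high values. Control 4 stood apart with 13.70 for Pdp1 (next 7.50), 9.79 for Aco1 (next 7.61) and 8.42 for Pdhx (next 8.04). Control 1 gave 9.68 for Pdk2 (next 8.85), DDE 2 gave 12.57 for Suclg2 (next 11.66), and DDE 3 gave 8.89 for Me3 (next 7.56). The spots of Pdp1, Aco1, Pdk2 and Suclg2 were stained and those of Pdhx and Me3 were not. Changes without these mice stand beside the results above for the first 5 genes, and for Me3 the change went from 0.11 to -0.26 without DDE 3.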

How the results depend on the processing

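Counts of calls among 30 members, 1 higher and 1 lower as deposited, moved with the setting. Higher members numbered 2 with dimmer probes left out, 2 with stained spots left out, 2 with probes averaged per gene, and 3 when arrays were weighted. With stained spots left out and the rest quantile normalized there were 2 higher and 2 lower. With an intensity trend and robust variance 0 were lower, and ordinary t statistics gave 0 and 0. Leaving out 1 array gave 0 to 3 higher and 0 to 1 lower. In the replicate block fit 0 and 0 members and 0 and 0 neighbouring genes passed, against 3 and 2 without the block, and 9 of 42957 probes, against 1289. The labels state no pairing. Deviations of same-numbered arrays correlated with r between -0.011 and 0.075, and those of other pairs between -0.067 and 0.041. With 4 arrays per group these values cannot settle whether same-numbered arrays belong together. The share of stained spots rose with the number in both groups, from 1.16% to 9.5% in controls and from 0.521% to 7.59% after DDE. Members at an unadjusted p under 0.05 numbered 5 to 8 higher and 2 to 4 lower in all 20 settings. They were 8 higher without control 4 and DDE 4, a setting added after seeing the data, and 5 to 8 higher without 1 array. Members without overlap were 4 to 8 higher and 3 to 4 lower without 1 array, and 1 lower with probes averaged per gene. Neighbouring genes numbered 0 higher with a trend and robust variance, and 0 to 4 higher and 1 to 4 lower without 1 array. With 1 array fewer, 332 to 1596 probes passed in all. The median change of members ran from 0.03 to 0.23. The 8 pairs kept their direction in each setting run. Besides the 8 weaker Suclg2 and 10 weaker Pdhx settings, Pdk2 passed in 7, Slc25a10 in 3 and Pdhb in 1. No called change reversed. Signal near background limits Pdhx, Pdk3, Pdp1, Aco1, Me2 and Me3, and the controls of Slc25a10 also lay near it.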
